A study of Mus musculus with 10 samples.

Results

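The genes described here encode the isoenzymes of glycolysis, the transporters that bring glucose into the cell and the kinases that hold pyruvate back from the mitochondrion. They were taken from a list of 34 named genes, of which 33 lie on the autosomes and 1, Pfkfb1, lies on chromosome X. Pfkfb1 is described apart, and all counts below are over the 33 autosomal genes, out of 20807 autosomal protein-coding genes in the GENCODE M21 annotation of mm10. The study mapped chromatin interactions in F123 cells, a mouse embryonic stem cell (mESC) line from an F1 cross of Mus musculus castaneus and S129/SvJae, using 10 samples without a treatment or a second cell type. The values used here come from H3K4me3 ChIP-seq on 2000000 fixed cells per sample and ATAC-seq on 100000 fresh cells per sample, each in 2 biological replicates. For each assay a single list of peaks stands for both replicates, with 33487 H3K4me3 peaks and 179109 ATAC-seq peaks. No value below therefore has a spread between replicates, the read depth is unknown, and every comparison is a description without a test. F123 is 1 cell line, kept on irradiated CF1 mouse embryonic fibroblasts and passaged once without feeders before harvest, and both assays share its genotype and culture.

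H3K4me3 is a histone modification found around the start sites of active and poised genes, and ATAC-seq maps DNA that a transposase can reach, which includes promoters and enhancers. Glycolysis splits glucose into pyruvate, and most of its steps can be carried out by several isoenzymes encoded by separate genes with different tissue distributions. Pluripotent stem cells are known for a high rate of glycolysis, in which much of the pyruvate is reduced to lactate.

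A gene was called marked when a peak of the list shared at least 1 bp with the window of 2 Kb on either side of its start, the 5′ end of its annotated gene record. Its strength is the deposited fold enrichment, the ratio of the ChIP-seq signal to the peak caller's background, in the strongest such peak. This value describes how far a peak stands out within 1 experiment and is not a level of transcription.

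The promoter sequences below compare isoenzymes of the same step whose starts differed in H3K4me3, together with 2 start sites that had no peak, and were chosen after their peaks had been seen. They are RefSeq sequences of GRCm38.p6, the same assembly as mm10, written 5′ to 3′ on the strand of the gene and ending just before the start site or, for Ldhc and Pgk2, where an annotated exon begins. Capitals mark CG dinucleotides. The first 3 belong to isoenzymes of broad use whose start lay inside a strong H3K4me3 peak. For Ldha this is an inner start, 4329 bp into the gene, and the peak at its gene start had only 4.09-fold.
Ldha, chr7:46845554-46845803, plus strand: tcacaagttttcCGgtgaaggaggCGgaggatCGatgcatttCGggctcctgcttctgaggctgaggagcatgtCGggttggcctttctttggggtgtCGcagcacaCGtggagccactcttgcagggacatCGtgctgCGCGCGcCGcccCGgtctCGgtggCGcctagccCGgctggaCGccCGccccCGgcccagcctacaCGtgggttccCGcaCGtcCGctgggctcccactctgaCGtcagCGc
Pgam1, chr19:41911621-41911870, plus strand: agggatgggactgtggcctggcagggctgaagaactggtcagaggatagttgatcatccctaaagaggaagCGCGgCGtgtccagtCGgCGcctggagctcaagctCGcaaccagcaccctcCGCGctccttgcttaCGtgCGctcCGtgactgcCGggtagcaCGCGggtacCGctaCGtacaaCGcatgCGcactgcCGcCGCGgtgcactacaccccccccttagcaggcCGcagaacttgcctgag
Eno1, chr4:150236458-150236707, plus strand: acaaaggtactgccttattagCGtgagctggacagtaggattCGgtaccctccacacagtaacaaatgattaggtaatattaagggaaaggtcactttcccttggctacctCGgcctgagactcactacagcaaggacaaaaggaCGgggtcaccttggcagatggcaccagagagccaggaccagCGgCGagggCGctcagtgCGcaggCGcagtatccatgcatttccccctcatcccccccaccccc
These sequences held 25 CG dinucleotides for Ldha, 22 for Pgam1 and 9 for Eno1. The next 3 belong to the germ cell or muscle isoenzymes of the same steps, lactate dehydrogenase C, phosphoglycerate mutase 2 and enolase 3.
Ldhc, chr7:46861013-46861202, plus strand: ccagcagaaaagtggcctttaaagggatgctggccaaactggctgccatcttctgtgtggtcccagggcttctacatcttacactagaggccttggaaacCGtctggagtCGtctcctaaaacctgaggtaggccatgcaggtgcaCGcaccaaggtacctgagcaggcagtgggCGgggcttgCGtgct
Pgam2, chr11:5803797-5804046, minus strand: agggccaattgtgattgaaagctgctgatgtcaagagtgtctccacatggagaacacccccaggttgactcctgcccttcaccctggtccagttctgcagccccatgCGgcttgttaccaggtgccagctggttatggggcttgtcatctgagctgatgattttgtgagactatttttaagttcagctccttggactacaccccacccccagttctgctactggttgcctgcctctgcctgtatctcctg
Eno3, chr11:70656926-70657175, plus strand: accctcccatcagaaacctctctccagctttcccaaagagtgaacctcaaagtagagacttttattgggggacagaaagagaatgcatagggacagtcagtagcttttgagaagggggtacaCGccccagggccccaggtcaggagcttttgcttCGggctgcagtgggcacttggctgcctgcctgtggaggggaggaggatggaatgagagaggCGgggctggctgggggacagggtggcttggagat
They held 5 CG dinucleotides for Ldhc, in a shorter stretch of 190 bases, 1 for Pgam2 and 3 for Eno3. The last 2 lie before start sites that had no H3K4me3 peak within 2 Kb, the upstream start of the hexokinase gene Hk1 and the single start of the testis gene Pgk2.
Hk1, upstream start, chr10:62379909-62380158, minus strand: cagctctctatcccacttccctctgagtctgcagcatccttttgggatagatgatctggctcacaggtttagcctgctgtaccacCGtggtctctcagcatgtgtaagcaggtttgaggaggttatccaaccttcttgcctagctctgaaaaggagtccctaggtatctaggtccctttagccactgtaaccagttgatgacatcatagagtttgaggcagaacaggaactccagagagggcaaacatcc
Pgk2, chr17:40208641-40208859, minus strand: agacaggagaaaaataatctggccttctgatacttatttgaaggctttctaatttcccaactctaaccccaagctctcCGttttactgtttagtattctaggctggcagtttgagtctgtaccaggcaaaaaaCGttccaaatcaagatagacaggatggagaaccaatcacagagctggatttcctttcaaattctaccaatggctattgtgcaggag
The Hk1 sequence held 1 CG dinucleotide and the 219 bases of Pgk2 held 2. In the window from 250 bases before to 50 bases after the other RefSeq start of Hk1, 39487 bp into the gene, there were 20.

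Of the 33 genes, 27 (81.8%) had an H3K4me3 peak within 2 Kb of the start, against 67.7% of all autosomal protein-coding genes. An ATAC-seq peak lay within 2 Kb of the start of 27 genes, where the share of all coding genes was 75.9%. The same 27 genes carried both, so that 81.8% had both peaks against 67.2% of all coding genes. The 6 genes with neither were Slc2a2, Hk1, Hk3, Pfkfb2, Gapdhs and Pgk2 (18.2%, against 23.6% of all coding genes). No gene of the list had a peak in only 1 of the assays. Among the 20807 coding genes, 105 had only an H3K4me3 peak and 1814 only an ATAC-seq peak. Both peaks were present at 13974 of the 14079 coding genes with an H3K4me3 peak, so this overlap is common. Because many genes start transcription at several places, the count was repeated over every annotated start of a coding transcript. It then rose to 29 genes (87.9%, against 70.3% of all coding genes), with Hk1 and Pfkfb2 added.

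The genes differed widely in strength. The fold enrichment of the strongest peak ran from 2.93 at Pklr to 55.9 at Eno3, with a median of 25.5 and quartiles of 14.0 and 43.3. Over the 14079 autosomal coding genes with a peak the median was 30.9, with quartiles of 20.4 and 40.4. Counted at the strongest of all coding starts, the medians were 29.7 and 31.2. Peaks over 30-fold stood at 11 of the 27 genes with a peak (40.7%, against 52.4% of coding genes with a peak), and peaks under 10-fold at 5 of them (18.5%, against 9.27%). Those 5 were Aldoc, Pgam2, Pklr, Ldha and Ldhc.

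**Figure D1:**
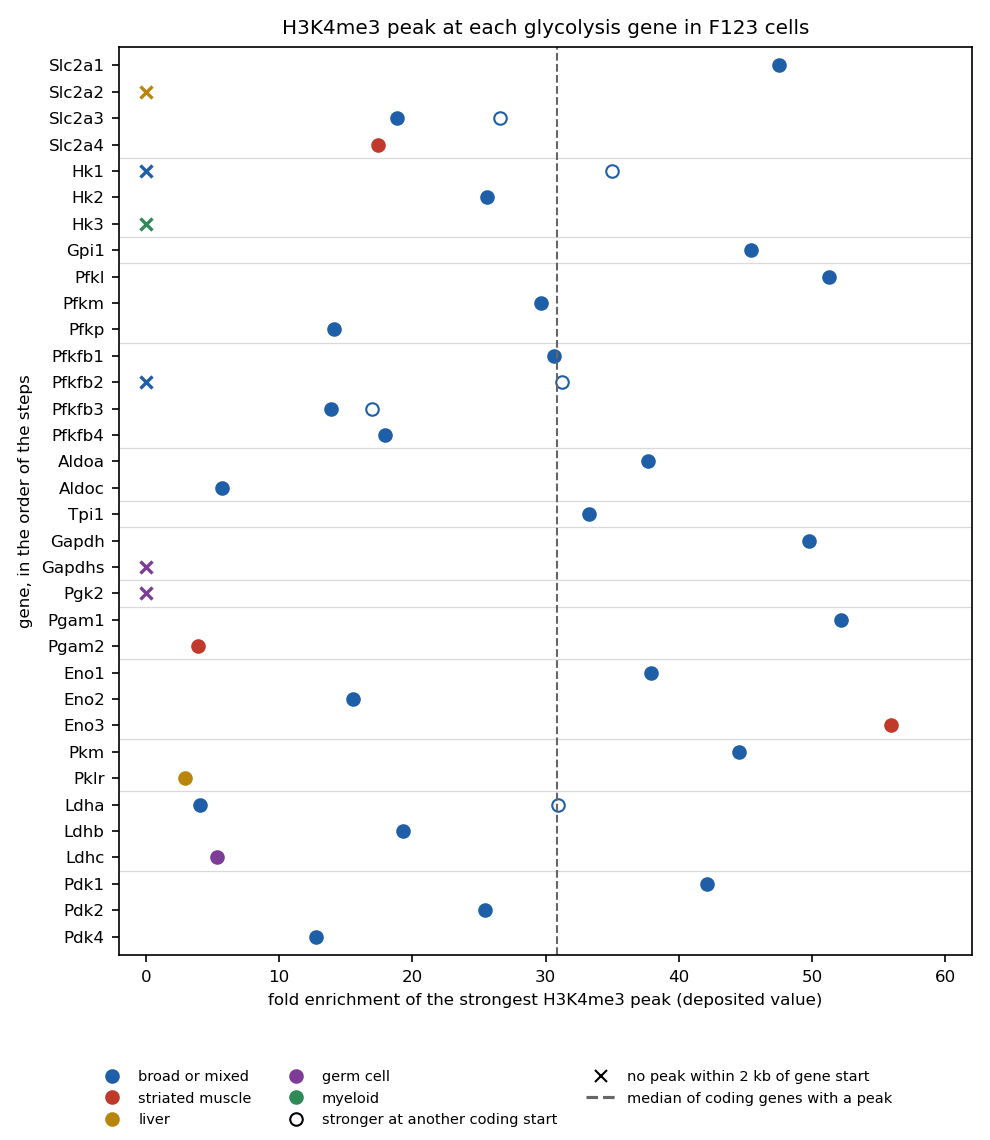
Fold enrichment of the strongest H3K4me3 peak within 2 kb of the start of each of the 34 genes, in the order of the steps, with colours for the tissue class. Filled points are the gene start, open points a stronger peak at another coding start of the same gene, crosses genes with no peak within 2 kb of the gene start, drawn at 0 for want of a value, and the dashed line the median of 30.9 over coding genes with a peak.

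Glucose enters the cell through the facilitative transporters of the Slc2a family. Of the 4 listed members, 3 were marked, where the share of all coding genes was 67.7%. Slc2a1 (chr4:119108711-119137983), which encodes the widely used GLUT1, had the strongest peak of the 4, at 47.5-fold, higher than that of 88.1% of the coding genes with a peak. That peak was 3578 bp wide and ran from -71 to 3506 bp relative to the start, with a minor peak of 3.25-fold just upstream. Slc2a3 (chr6:122727809-122801640) encodes GLUT3, a transporter of high affinity known from neurons and the early embryo, and had a peak of 18.8-fold at its gene start. A stronger peak of 26.6-fold and 4667 bp lay inside the gene, from 57476 to 62142 bp after the gene start, and covered the other 3 coding starts. Slc2a4 (chr11:69942539-69948188), the insulin-responsive GLUT4 of muscle and fat, had a peak of 17.4-fold over all 5 of its coding starts and 4 ATAC-seq peaks within 2 Kb. The liver and beta cell transporter gene Slc2a2 (chr3:28697903-28731359) had neither mark at its start, and the only H3K4me3 peak in its body was one of 3.28-fold at 29043 bp. Slc2a1 thus stood above the other 3, of which Slc2a3 and Slc2a4 were close to each other at their gene starts.

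Hexokinases phosphorylate glucose and so trap it in the cell. Only Hk2 (chr6:82725025-82774454), the inducible form of muscle and fat that many tumours use, was marked at its gene start, with a peak of 25.6-fold. This peak was 4154 bp wide, wider than that of 93.4% of the coding genes with a peak, although its fold exceeded only 36.4% of them. The Hk2 body also held 20 ATAC-seq peaks, or 4.05 per 10 Kb, more than 91.2% of coding genes. Hk1 (chr10:62268855-62379908), the form of most tissues, had no peak of either assay at its annotated 5′ end. Its peak of 35.0-fold lay from 38560 to 40932 bp into the gene, covered the coding start at 39366 bp, and held an ATAC-seq peak of 840 bp over the same start. That stretch also contains the start of the antisense gene Hk1os, so the H3K4me3 there cannot be assigned to 1 of the 2 transcripts. On the scale of any coding start, Hk1 exceeded 60.8% of the marked genes and Hk2 35.6%, so the order of these isoenzymes rests on which start is counted. Hk3 (chr13:55005985-55021385), a form of myeloid cells, had no peak of either assay within 2 Kb of any of its 4 coding starts, and only peaks of 3.19-fold and 3.76-fold further into its body.

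Gpi1 (chr7:34201330-34230336), the only gene for the isomerase that turns glucose 6-phosphate into fructose 6-phosphate, had a peak of 45.4-fold and an ATAC-seq peak of 732 bp over its start. Phosphofructokinase carries out the first step committed to glycolysis and forms tetramers of liver, muscle and platelet subunits. The genes of all 3 were marked (against 67.7% of all coding genes). Pfkl (chr10:77986947-78010083), the liver subunit, had the strongest of these peaks, at 51.2-fold, higher than 92.8% of the coding genes with a peak. Pfkm (chr15:98092589-98132451), the muscle subunit, had 29.7-fold in a peak that also held the start of Senp1, a gene read in the other direction, and of the antisense gene Gm26513. The ATAC-seq peak next to the Pfkm gene start did not reach it, lying from 242 to 1138 bp downstream. A second Pfkm peak of 21.7-fold, from 15025 to 16829 bp, covered the coding start at 15877 bp together with an ATAC-seq peak of 626 bp and held no start of another gene. Pfkp (chr13:6579768-6648777), the platelet subunit, was the weakest of the 3, with 14.1-fold in a peak of 3075 bp. The order at the gene start was therefore Pfkl, Pfkm and Pfkp, where the Pfkm peak also covered the start of Senp1.

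The bifunctional enzymes of the Pfkfb family make and break fructose 2,6-bisphosphate, the main activator of phosphofructokinase. Pfkfb3 (chr2:11471433-11554077), the form with the highest ratio of kinase to phosphatase activity, had 13.9-fold at its gene start and 17.0-fold in a peak from 49921 to 53535 bp that covered its other 3 coding starts. Pfkfb4 (chr9:108991778-109032228) had a narrow peak of 17.9-fold and 864 bp that began 13 bp after its start, and one of 6.26-fold upstream that held the start of the noncoding gene Gm38004. Pfkfb2 (chr1:130689182-130729253), the heart form, had neither mark at its gene start. A peak of 31.2-fold and 3939 bp lay from 10530 to 14468 bp inside it over 2 of its coding starts, and this peak also held the starts of Yod1 and Gm29427. Pfkfb1 (chrX:150588229-150643878), the liver and muscle form that lies outside the counts, had 30.6-fold in a peak of 2640 bp over its gene start with an ATAC-seq peak of 785 bp. All 4 members of the family thus had a peak at a coding start, where 70.3% of autosomal coding genes had one. The marked coding starts of Pfkfb2 were inside the gene.

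Aldolase splits the 6-carbon sugar. The annotation holds 2 records named Aldoa, and the one with more coding starts (chr7:126795234-126800751) was used. Its peak of 37.7-fold began 231 bp after the record's 5′ end and ran to 3934 bp, over 7 of its 8 coding starts and also over the start of Fam57b. The upstream record had a peak of its own of 15.6-fold from -588 to 864 bp around its start. Aldoc (chr11:78322968-78327781), the brain form, had 5.69-fold in a peak of 549 bp, with more fold than only 4.47% of the coding genes with a peak. The start of Aldoc nevertheless lay inside an ATAC-seq peak of 601 bp. Tpi1 (chr6:124810586-124814296), the isomerase that interconverts the products of aldolase and has no other isoenzyme in the list, had a peak of 33.3-fold and an ATAC-seq peak of 994 bp over its start.

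In several of the later steps, in which ATP is regained, isoenzymes of the same step stood far apart, as they had at glucose entry and aldolase. Gapdh (chr6:125161715-125166467), glyceraldehyde phosphate dehydrogenase and a common reference gene, had a peak of 49.8-fold and 4042 bp that covered all 4 of its coding starts. Gapdhs (chr7:30729775-30743681), the sperm form of the same enzyme, had neither mark within 2 Kb of a coding start, and the peak of 27.6-fold near its 3′ end held the start of Tmem147. Pgk2 (chr17:40207015-40208640), an intronless phosphoglycerate kinase gene used in spermatogenesis, had no peak of either assay at its start or in its body. It was the only phosphoglycerate kinase gene in the list. The step was therefore the single one of 14 without a marked gene among those listed, and phosphoglycerate kinase genes outside the list were not examined. Pgam1 (chr19:41911923-41918660), the phosphoglycerate mutase of most tissues, had 52.1-fold, above 93.6% of the coding genes with a peak. Pgam2 (chr11:5801640-5803733), the muscle form, had 3.90-fold in a peak of 389 bp and 3.19-fold in one of 291 bp, both after its start. The stronger one exceeded the peak of 2.00% of the coding genes with a peak, although an ATAC-seq peak of 218 bp covered the gene start.

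Enolase was the step at which the muscle isoenzyme carried the highest value. Eno1 (chr4:150236721-150248879), the broad form, had 37.9-fold in a peak of 6321 bp, wider than that of 99.1% of the coding genes with a peak. Eno2 (chr6:124760053-124769673), the neuronal form, had 15.5-fold in a peak of 2088 bp. Eno3 (chr11:70657202-70662513), the muscle form, was given 55.9-fold, the highest value of the list, but this peak ran from -5315 to -130 bp and did not reach any of its 6 coding starts. The peak held the starts of Pfn1, which encodes the actin-binding protein profilin, and of the noncoding gene Gm12319, and its summit lay at -2767 bp. No H3K4me3 peak lay in the body of Eno3, and no ATAC-seq peak covered its start. The mark at Eno3 is thus one that lies within 2 Kb by the definition used and over the promoter of a neighbour.

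Pyruvate kinase carries out the last step of glycolysis and yields ATP. Pkm (chr9:59656368-59679375), whose transcript is spliced to the M1 and M2 forms, had 44.5-fold in a peak of 6074 bp that covered 8 of its 9 coding starts, wider than 98.9% of the marked coding genes. Pklr (chr3:89136142-89146784), the form of liver and red cells, had 2.93-fold in a peak of 342 bp that began 966 bp after the start, with more fold than 0.504% of them. ATAC-seq peaks of 561 and 354 bp lay within 2 Kb of the Pklr gene start, and neither reached it. The wider one covered the other 2 coding starts of Pklr. Both pyruvate kinase genes were therefore counted as marked, while their folds were 44.5 and 2.93.

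Lactate dehydrogenase turns pyruvate into lactate and back. Ldha (chr7:46841475-46855627), the muscle-type subunit that is also the main one in highly glycolytic cells, had only 4.09-fold at its annotated 5′ end. The strong Ldha peak of 30.9-fold and 3134 bp lay from 3257 to 6390 bp, just outside the window, and covered the other 11 of its 12 coding starts. An ATAC-seq peak of 849 bp covered 7 of these 11 starts, and one of 562 bp covered 2 of them. Ldhb (chr6:142490249-142507957), the heart-type subunit, had 19.3-fold in a peak of 2716 bp. Ldhc (chr7:46861203-46878142), the testis subunit whose gene lies next to Ldha, had 5.30-fold in a peak of 556 bp, with an ATAC-seq peak of 435 bp over its start. Judged at the gene start, Ldhb was the strongest of the 3. At any coding start it was Ldha.

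Pyruvate dehydrogenase kinases phosphorylate and silence the complex that would carry pyruvate into the citrate cycle. All 3 listed genes were marked over their start, as were 62.4% of all coding genes. Pdk1 (chr2:71873224-71903858), a target of the hypoxia response in many cells, had the strongest peak, at 42.1-fold and 3940 bp. Pdk2 (chr11:95026258-95041354), the most widely expressed form, had 25.5-fold. Pdk4 (chr6:5483351-5496309), induced by fasting in muscle and liver, had 12.7-fold in a peak of 1495 bp. Each of the 3 starts also lay inside an ATAC-seq peak, where the share of all coding genes was 63.6%. These peaks measured 1101 bp at Pdk1, 598 bp at Pdk2 and 944 bp at Pdk4.

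**Figure D2:**
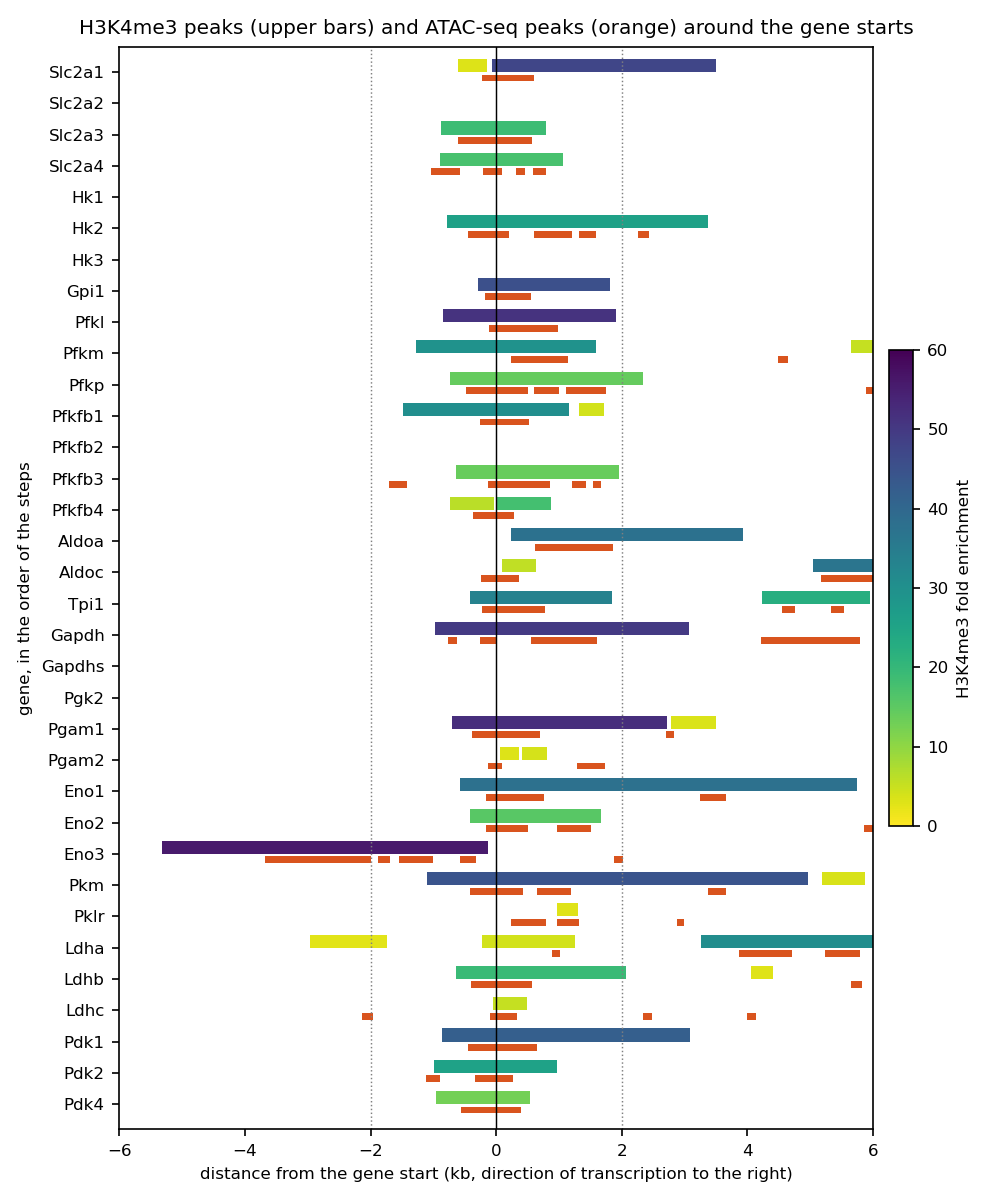
H3K4me3 peaks (upper bars, coloured by fold enrichment) and ATAC-seq peaks (orange) within 6 kb of the start of each of the 34 genes, with distance in kb along the direction of transcription. Dotted lines mark the window of 2 kb, and the row of Eno3 shows a peak that ends 130 bp before the start.

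At 5 of the 33 genes the strongest H3K4me3 peak stood at a coding start other than the gene start. These were Slc2a3, Hk1, Pfkfb2, Pfkfb3 and Ldha (15.2%, against 4.91% of all coding genes). The distance between the gene start and the near edge of the peak ranged from 3257 bp at Ldha to 57476 bp at Slc2a3. Slc2a3, Pfkfb3 and Ldha were marked at both places, and Hk1 and Pfkfb2 only inside. At each of these 5 genes an ATAC-seq peak covered at least 1 of the coding starts under the inner peak. Of the inner peaks, those of Slc2a3, Pfkfb3 and Ldha held no start of another gene.

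**Figure D3:**
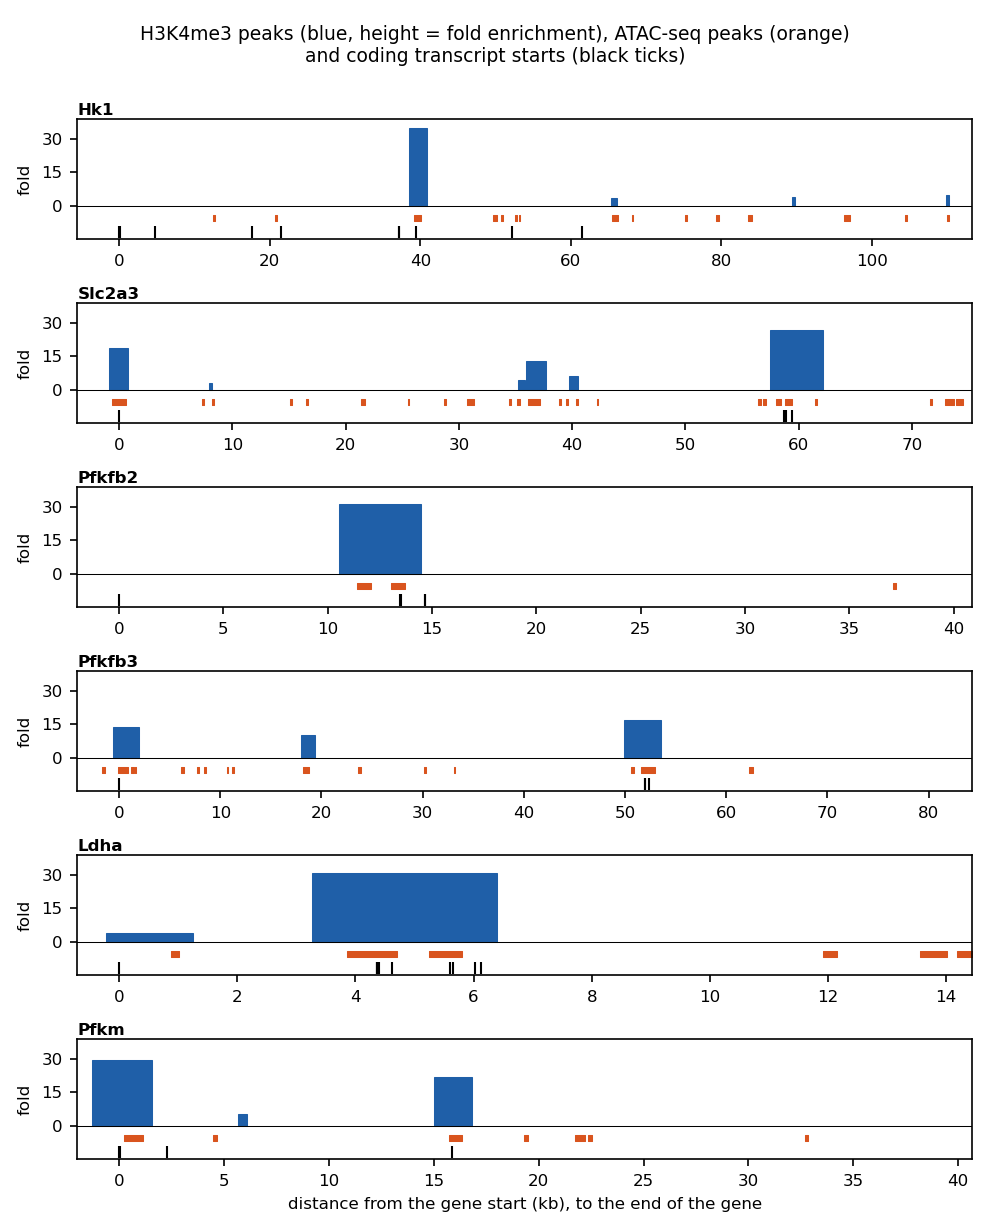
H3K4me3 peaks (blue bars, height in fold enrichment), ATAC-seq peaks (orange) and annotated coding starts (black ticks) along Hk1, Slc2a3, Pfkfb2, Pfkfb3, Ldha and Pfkm, against distance from the gene start in kb. The first tick of Hk1 and of Pfkfb2 has no peak of either assay, and the tallest bar stands at 35.0-fold inside Hk1.

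The peaks at the 27 genes were wider at the median than those of coding genes in general, and their fold was lower. The median width of the strongest peak was 2603 bp over the 27 genes and 2164 bp over all coding genes with a peak. Eno1 and Pkm were the widest at 6321 and 6074 bp, and Pklr and Pgam2 the narrowest at 342 and 389 bp. The peak covered the gene start of 21 of the 33 genes (63.6%, against 62.4% of all coding genes). Among genes with a peak only, it covered the start at 21 of 27, and at 12975 of 14079 over all coding genes. At these 21 it reached a median of 730 bp upstream and 1903 bp downstream, where the medians over all coding genes whose start lay in a peak were 714 and 1397 bp. The part after the start was the longer one at 18 of the 21 genes (85.7%, against 82.8%), and the exceptions were Slc2a3, Pdk2 and Pdk4. The 6 marked genes whose start lay outside every H3K4me3 peak were Pfkfb4, Aldoa, Aldoc, Pgam2, Eno3 and Pklr.

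**Figure D4:**
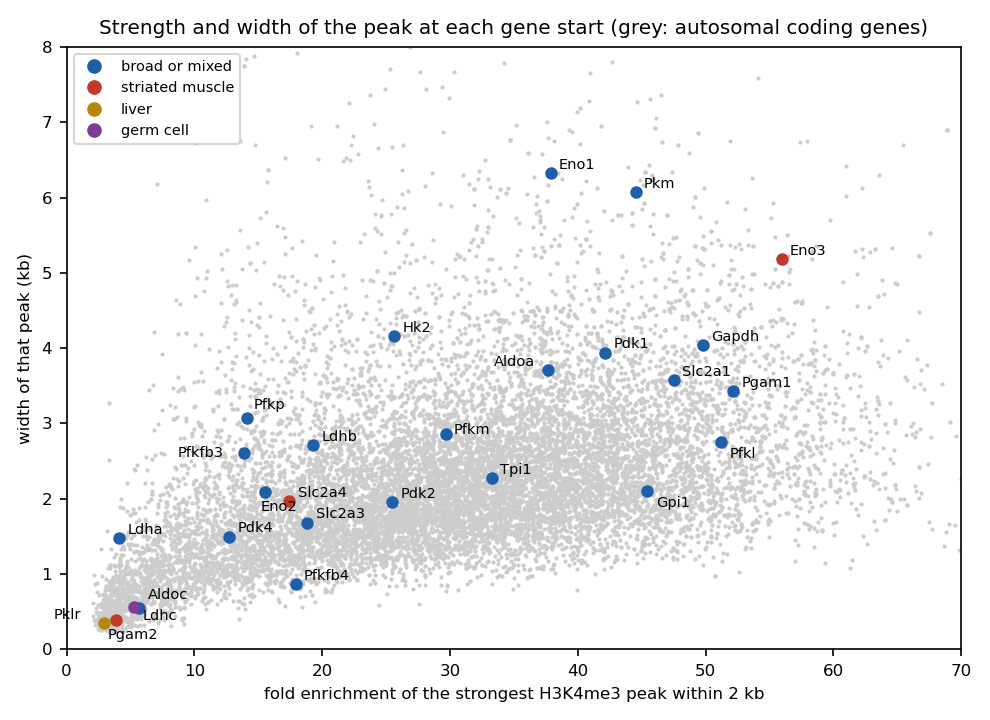
Width in kb against fold enrichment of the strongest H3K4me3 peak within 2 kb of the start, for the 27 marked autosomal genes (coloured by tissue class) and the 14079 autosomal coding genes with a peak (grey, of which 74 lie outside the axes). Eno1 and Pkm stand above 6 kb, and Aldoc, Ldhc, Pgam2 and Pklr form a group under 1 kb and 10-fold.

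Open chromatin followed the same genes. The gene start lay inside an ATAC-seq peak at 22 of the 33 genes (66.7%, against 63.6% of all coding genes). The widest ATAC-seq peak within 2 Kb had a median of 897 bp, and of 876 bp over all coding genes with one. It ranged from 138 bp at the Ldha gene start to 1690 bp at Eno3, where it lay from -3683 to -1994 bp. Within gene bodies the density of ATAC-seq peaks had a median of 1.88 per 10 Kb over the 33 genes and 1.16 over all coding genes. Slc2a3 held 23 such peaks over 73832 bp, and Slc2a2 held 1 over 33457 bp. Pgk2 had none.

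The genes were also grouped by textbook knowledge into 9 named for a germ cell, liver, striated muscle or myeloid form and 24 of broad or mixed use. The classes are coarse and were set with earlier results of these data known, so the split is a description and not a test. Aldoc and Eno2, forms of brain and neurons, Hk2 and Pfkm, forms of muscle, and Pfkfb2, the heart form, were counted in the second group. Slc2a2, Slc2a4 and Pklr, which are used in more than 1 tissue, were counted in the first. The broad or mixed group was marked at 22 of 24 gene starts (91.7%, against 67.7% of all coding genes), and at 24 of 24 when any coding start counted (against 70.3%). Of the 9 others, 5 were marked (55.6%) under either definition. Among the germ cell genes, only Ldhc was marked, among the liver genes only Pklr, and the myeloid gene Hk3 was not. All 3 muscle genes, Slc2a4, Pgam2 and Eno3, were counted as marked, with 17.4-fold, 3.90-fold and 55.9-fold. The start itself lay inside an H3K4me3 peak at 19 of the 24 broad or mixed genes (79.2%) and at 2 of the 9 others (22.2%), Slc2a4 and Ldhc, where the share of all coding genes was 62.4%. Peaks of 1 list cannot say whether a weak peak comes from few of the cells or from little H3K4me3 in each.

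Of the 33 genes, 31 matched a RefSeq promoter, with 50 start sites among them, and Slc2a3 and Slc2a4 did not match. The ratio of observed to expected CG dinucleotides in the 300 bases around each start measures how much of a CpG island it is. It had a median of 0.677 at the 34 starts inside an H3K4me3 peak over 10-fold, 0.338 at the 3 starts inside a weaker peak and 0.141 at the 13 starts in no peak. Over all 20077 autosomal coding starts of RefSeq the medians were 0.788, 0.416 and 0.177 in the same order. The sequences printed above differed on this scale. The ratio was 0.948 at Pgam1 and 0.0469 at Pgam2, and 0.580 at Eno1 and 0.129 at Eno3. It was 0.882 at the inner start of Ldha and 0.424 at the first start of Ldhc. Within Hk1 it was 0.0507 at the unmarked upstream start and 0.665 at the marked inner one. The Pgk2 start, in no peak, had 0.291. Not every start followed: 1 Aldoa start with a ratio of 0 and 1 Pdk1 start with 0.169 lay inside strong peaks, where a second start of higher ratio lay under the same peak. The Pfkm gene start (0.397, 29.7-fold) and 1 Pfkfb2 start (0.380, 31.2-fold) also had lower ratios than the Hk3 start in no peak (0.407). Points of the same gene share sequence and peak and are not independent.

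**Figure D5:**
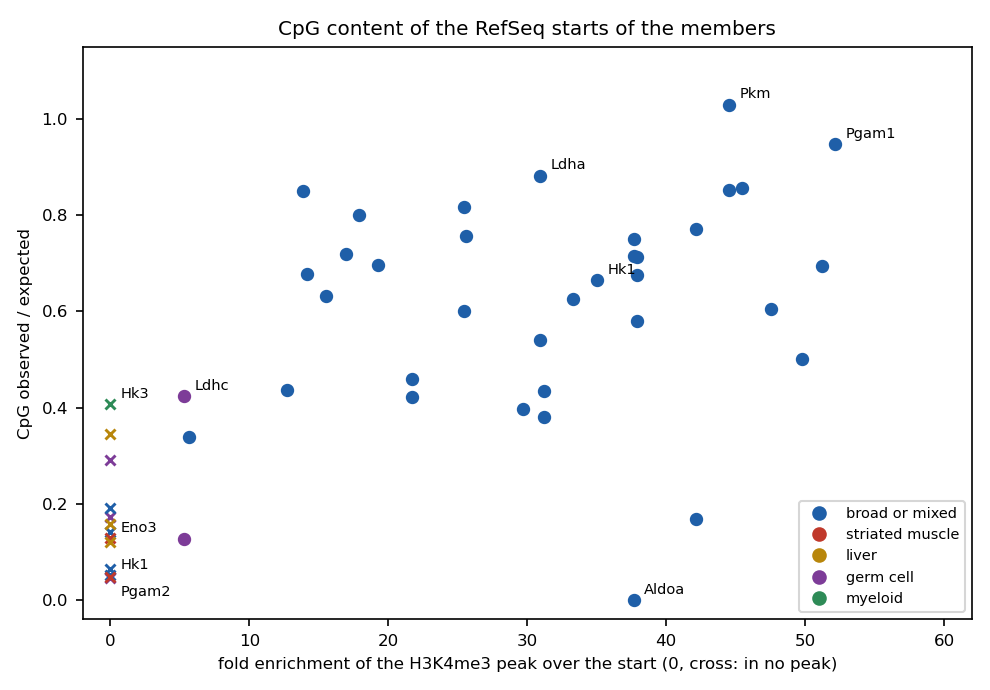
Ratio of observed to expected CG dinucleotides around the 50 RefSeq starts of the autosomal genes, against the fold enrichment of the H3K4me3 peak that covers the start, with crosses at 0 for the 13 starts in no peak. The crosses stay below 0.41, and Pkm has the highest ratio, at 1.03.

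Short motifs were counted in the same 300 bases, on both strands. ACGTG, the core shared by the hypoxia response element and the E-box, was found at 19 of the 50 starts (38.0%) and at 21.1% of all coding starts. Windows of the same gene can overlap, as they do at Aldoa, so the 50 starts are not independent. The E-box CACGTG, each of which also holds ACGTG, was found at 5 of the 50 starts (10.0%, against 7.89%). The inner Ldha start carried CACGTG at -145 and -48 bp and CACGT, the reverse complement of ACGTG, at -34 bp, as the printed sequence shows. The printed Pgam1 sequence carried ACGTG at -114 bp, and none was present in the windows of the printed Pgam2, Eno1, Eno3, Ldhc and Pgk2 starts or the upstream Hk1 start. Over all member starts, ACGTG was found at 15 of the 34 inside an H3K4me3 peak over 10-fold (44.1%, against 26.3% of all such coding starts). It was also found at 1 of the 3 inside a weaker peak (33.3%, against 20.4%) and at 3 of the 13 in no peak (23.1%, against 12.6%). GGGCGG, a GC box, was found at 20 of the 50 starts (40%, against 47.0%), TATAAA at 3 (6%, against 12.7%) and CCAAT at 19 (38.0%, against 38.1%). A match is a run of letters, and binding of a factor was not measured.

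The pathways that branch from glycolysis were counted in the same way at their gene starts, where 67.7% of all coding genes were marked. The lists are selections of genes and not complete pathways. With so few genes in each list, the counts are given as a description. All 6 genes listed for the pentose phosphate pathway were marked, from 21.1-fold at Rpia to 55.9-fold at Rpe. All 8 genes listed for the mitochondrial pyruvate carrier and pyruvate dehydrogenase, with Pdp1 and Pdp2 among them, were marked. They ran from 29.7-fold at Mpc1 to 49.6-fold at Dld. The listed citrate cycle genes were marked at 15 of 15, from 25.4-fold at Sucla2 to 55.7-fold at Cs. The median fold was 37.8, 36.3 and 40.0 in these 3 lists, against 25.5 for the glycolysis genes. The sets are unlike, because the glycolysis list also holds isoenzymes named for single tissues. Its broad or mixed genes had a median of 27.6, or of 31.1 at any coding start. Counted at any coding start, the 3 other lists had 37.8, 36.3 and 40.3. Of 6 genes of gluconeogenesis, 4 were marked, with Pcx at 43.9-fold and Fbp2 at 6.57-fold, and the liver genes G6pc and Pck1 were not. All 4 monocarboxylate transporter genes, which export lactate among other substrates, were marked, from 9.70-fold at Slc16a8 to 55.2-fold at Slc16a1. Of 6 other hexose transporter genes, 5 were marked, from 5.81-fold at Slc2a6 to 26.3-fold at Slc2a8, and Slc2a9 was not.

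The label of the cells was checked against markers. At a coding start, H3K4me3 peaks stood at 5 of 5 mESC markers, Pou5f1, Sox2, Nanog, Zfp42 and Esrrb (against 70.3% of all coding genes). Their folds ran from 14.9 at Nanog to 42.9 at Sox2. At the gene start the count was 4 of 5 (80%, against 67.7%), because the peak of Esrrb, of 27.1-fold, stood at another coding start. Of 6 fibroblast markers, 3 had an H3K4me3 peak under either definition (50%). These were Col1a2 with 20.4-fold, Col1a1 with 13.9-fold and Dcn with 3.39-fold, while Col3a1, Lum and Postn had none. All 6 were searched because of the feeder cells. Of them, 5 had an ATAC-seq peak within 2 Kb (83.3%, against 75.9% of all coding genes). The part of feeder cells in the values above was not tested.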

How the data were processed

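Peaks of H3K4me3 ChIP-seq and ATAC-seq from F123 mESC were used. The PLAC-seq and ChIP-seq input samples of the series were not analysed here. The H3K4me3 list came from the standard ENCODE workflow for histone ChIP-seq, which the authors ran with default settings, and its aligner and caller versions are not given in the sources used here. The deposited columns give each peak's position and summit, a fold enrichment (a ratio to the caller's background) and −log10 values of p (not used) and q. A deposited display score was not used. For ATAC-seq the authors aligned reads to mm10 with Bowtie 1.1.2, ran MACS2 2.1.1.20160309 for single replicates and for their pooled reads, and kept pooled peaks found in both replicates with bedtools 2.27.1. That deposited list holds positions only, and the submitters' processing notes name mm10 for both lists. Neither list carries read counts, so depth is unknown, and each list stands for both replicates, so no test was made.

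Gene records came from GENCODE M21 and promoter sequences from RefSeq on GRCm38.p6. Peaks sharing at least 1 bp with the 2 Kb on either side of a gene's 5′ end were assigned to it. All members were named. Of the neighbouring pathways, the genes without an H3K4me3 peak and those with the highest and the lowest fold were named. The members, gene lists and tissue classes were chosen with earlier results of these data known. Alternatives were a window of 1 or 5 Kb, a start inside a peak, any coding start, peak midpoints, a −log10 q of at least 5, the widest 50% of ATAC-seq peaks (at least 261 bp), all chromosomes and, chosen after seeing the data, H3K4me3 peaks that hold no start of another coding gene. The overlap step was tested on simulated data and checked against bedtools 2.31.1. Scripts used pandas 2.3.3, numpy 2.4.6 and matplotlib 3.10.9 under Python 3.11.15.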

Additional observations from a re-analysis of the deposited data

How the results depend on the processing

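The definition of a marked start moved the counts of members as follows. The number of members with an H3K4me3 peak ran from 21, when the start had to lie inside a peak, to 29, when any coding start counted. With an ATAC-seq peak it ran from 22 to 29, and with both from 19 to 29. The median fold ran from 19.1 to 29.7, and the median summed width from 1681 to 2716 bp. Pfkm, Aldoa and Eno3 lost their H3K4me3 call when peaks holding the start of another coding gene were left out, a choice made after seeing the data, and Aldoa, Eno1 and Eno3 when the midpoint of the peak had to lie in the window. Ldha lost its ATAC-seq call with the widest 50% of peaks, while a window of 5 Kb added Pfkfb2 for both assays and Gapdhs for ATAC-seq. The H3K4me3 peak added for Pfkfb2 lay upstream of its start and was not the 31.2-fold peak that began 10530 bp inside the gene.

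The shares of all coding genes moved out of their counting intervals (95%, Wilson, counting error only) under the alternatives tried, except H3K4me3 with a −log10 q of at least 5, which gave 67.36%. For H3K4me3 the share was 67.66% (67.03 to 68.3), and became 66.35% within 1 Kb, 62.36% with the start inside a peak, 70.61% within 5 Kb, 70.32% at any coding start, 66.3% by midpoints, 56.0% without peaks that hold another coding start and 66.4% over all chromosomes. For ATAC-seq it was 75.88% (75.29 to 76.45), and became 72.16%, 63.55%, 82.78% and 78.41% under the first 4 of these, 75.17% by midpoints, 74.56% over all chromosomes and 71.17% with the widest 50% of peaks. By construction each alternative counts other windows, peaks or genes.

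No paired analysis was possible because the replicates of an assay were merged into 1 list by the authors, and leaving out a replicate could not be run for the same reason. The lists give no depth, so a gene without a peak is one at which no peak was called, not one shown to lack the mark.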
